A study of Mus musculus with 451 samples.

Results

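Progenitor-like cells of mouse tail tendon were divided by their level of Tppp3, and the cells with high Tppp3 were compared with those with low Tppp3 across the other genes. Progenitor-like cells were 84 of the WT cells of the series (37.0%) and 78 of its 224 Mkx-/- cells (34.8%). Of these, 98 were Tppp3-high (50 WT and 48 Mkx-/-) and 64 were Tppp3-low (34 WT and 30 Mkx-/-). All cells came from tail tendons of C57BL/6 mice aged 4 weeks, either wild type or lacking Mohawk (Mkx), a transcription factor of the tendon lineage. The tendons were digested with collagenase I, and cells were captured one by one on a Fluidigm C1 chip, which makes a library of each captured cell. Since no label ties a cell to an animal or a chip, each genotype counted as 1 sample. No test was therefore made, and a difference between the cell groups has no replicate check beyond being looked for in WT and in Mkx-/- cells separately.

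TPPP3 belongs to the tubulin polymerization promoting proteins, which bind tubulin and bundle microtubules. In tendon its gene is known as a marker of cells of the sheath and paratenon, and Tppp3-positive cells that also carry the receptor Pdgfra have been described as progenitors that can give rise to tenocytes. Cd55, a complement-regulating surface protein, and Scara5, a ferritin receptor, are known from fibroblasts of the outer layers of many tissues. The protein-coding gene Tppp3 is annotated on the minus strand of chromosome 8 in build NCBIM37, from base 107991393 to base 107995322.

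The members were chosen by measured values, given here as a description. Cells with a mean log2(CPM+1) of Tnmd and Fmod of 10 or more were set aside as tenocyte-like (CPM is a gene's count scaled to the cell's total count). Of the rest, cells whose mean z-score of Cd55, Scara5, Cd248, Emilin2 and Efemp1 lay above that of Serpine2, Itm2a and Myoc were progenitor-like, and the others are called intermediate. A progenitor-like cell was Tppp3-high at a Tppp3 log2(CPM+1) of 8 or more, which is 255 CPM. Tppp3 in the WT cells ran from 279 through a median of 724 to 3236 CPM in the high group and from 0 through 66.4 to 249 CPM in the low group. In the Mkx-/- cells it ran from 260 through 737 to 2798 CPM and from 0 through 22.4 to 219.5 CPM. Tppp3-low does not mean Tppp3-negative, since 22 of the 34 WT and 16 of the 30 Mkx-/- low cells had at least 1 Tppp3 read. The 3 cells just inside the limit stood at 8.03, 8.13 and 8.19 and the 3 just outside at 7.96, 7.92 and 7.92, and 22 cells lay within 0.5 of it. At the median depth 1 read is worth 4.45 on this scale.

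Of the genes behind the progenitor-like label, which the rule itself used, the 5 progenitor genes were read at like levels on both sides of the limit, with log2 ratios of -0.00 to 0.50. Cd55 stood at 1518 CPM in Tppp3-high and 1240 CPM in Tppp3-low WT cells, and at 1529 and 1079 CPM in Mkx-/- cells, against 140.5 and 170.9 CPM in WT and Mkx-/- tenocyte-like cells. Scara5 stood at 724 and 682 CPM in WT and at 922 and 846 CPM in Mkx-/- cells. The genes that were used to leave out tenocytes were low in both groups, with Tnmd at 44.1 and 46.9 CPM in WT and at 90.2 and 110.4 CPM in Mkx-/- cells, against 3774 CPM in WT tenocyte-like cells. The genes of the other side of the rule differed in opposite directions in WT and Mkx-/- cells, and of these Serpine2 and Itm2a differed more. Myoc, the one with most reads, had log2 ratios of -0.30 in WT and 0.27 in Mkx-/- cells. Serpine2, a secreted protease inhibitor, stood at 22.1 CPM in high and 297 CPM in low WT cells, with 54.2% of the low reads in 1 cell, and at 188.9 and 95.9 CPM in Mkx-/- cells. Itm2a, a membrane protein, had log2 ratios of 0.76 in WT and -1.06 in Mkx-/- cells.

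The share of Tppp3-high cells was close between genotypes. It was 59.5% of WT progenitor-like cells (95% Clopper-Pearson interval 48.3 to 70.1) and 61.5% of Mkx-/- ones (49.8 to 72.3). Among intermediate cells 33.8% of WT and 37.1% of Mkx-/- cells passed the same limit, and among tenocyte-like cells 8.97% and 17.9%. This and every other interval covers counting error only, since the reads carry no molecular identifiers and cells of 1 sample are not replicates.

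**Figure D1:**
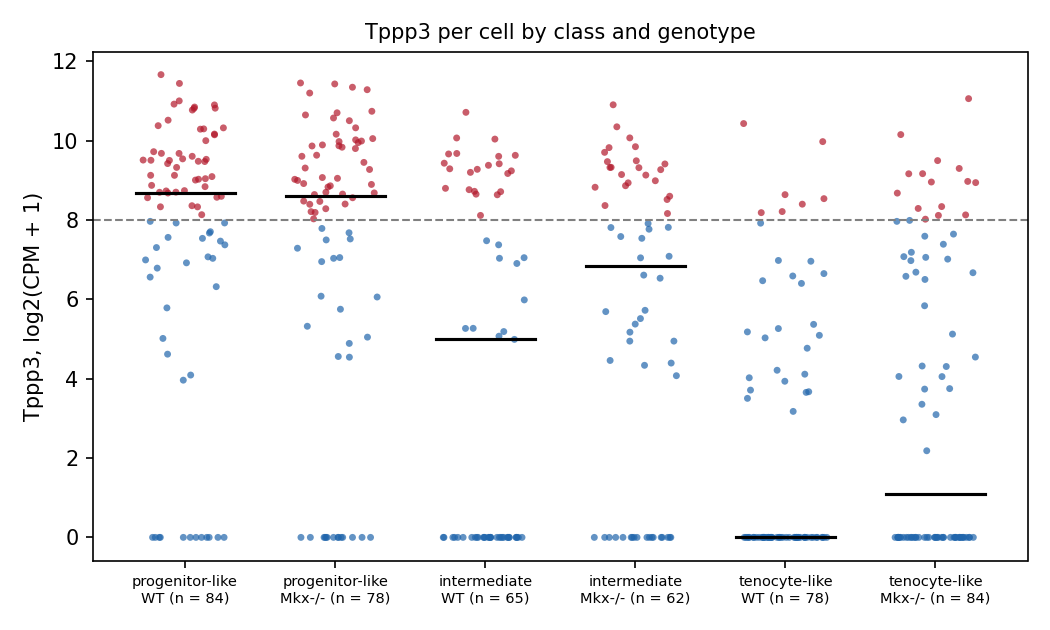
Tppp3 level, log2(CPM + 1), of each cell of the series by class and genotype. Each point is 1 cell, the black line is the median of the class and the dashed line is the limit of 8; red cells are Tppp3-high and blue cells lie below the limit. Most progenitor-like cells lay above the limit, and 37.2% of WT and 50% of Mkx-/- tenocyte-like cells had any Tppp3 read.

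Depth was similar in the WT groups and less so in the Mkx-/- groups. The median was 50280 reads in Tppp3-high and 48661 in Tppp3-low WT cells, and 54512 and 41651 in Mkx-/- cells, with 14226 to 134656 reads per cell over all 4 groups. Over the whole series Mkx had a summed level of 33.8 CPM in the WT cells, and of 15.5 CPM in those labelled Mkx-/-. The sources used here do not say which part of the gene was removed, so these reads check the labels only in part. In progenitor-like cells Mkx was almost unread, with 3 reads each in the WT groups and with 2 and 1 reads in the Mkx-/- groups. Markers of other cell types at 1000 CPM or more in sum were found in 5 high and 3 low WT cells and in 3 high and 1 low Mkx-/- cells, most often immune markers. Every marker of adipocytes stood at 0 in WT progenitor-like cells, and red blood cell and skeletal muscle markers had at most 7 reads in a group. Without those cells, an alternative added after the data were seen, the counts of genes given next stayed within 1.5 times their value.

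Across the genome the Tppp3-high and Tppp3-low cells differed little in genes read often, and most genes called in 1 genotype were not called in the other. Reads were summed over the cells of a group, and 6881 genes with at least 50 reads in the progenitor-like cells of each genotype were compared, the 11 genes of the rule left out. A gene was called when its summed CPM differed by 2-fold or more. In WT cells 864 genes (12.6% of those compared) were higher and 694 (10.1%) lower in Tppp3-high cells. In Mkx-/- cells 1097 genes (15.9%) were higher and 730 (10.6%) lower. In both genotypes 229 genes (3.33%) were higher and 1.8% were lower, while 1.69% were higher in WT and lower in Mkx-/- cells and 2.25% the reverse. The log2 ratios of WT and Mkx-/- cells had a Pearson correlation of 0.07 over the 6881 genes, which are not independent of each other.

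Ratios of genes with more reads were smaller and nearer each other in WT and Mkx-/- cells. Among the 598 genes with at least 1000 reads in each genotype, a set chosen after the values were seen, the correlation was 0.38 and the SD of the log2 ratio was 0.35 in WT and 0.43 in Mkx-/- cells, against 1.06 and 1.13 over all genes. Of these well-read genes 77.4% lay within 1.5-fold in both genotypes, 10 were at least 1.5-fold higher in both, 7 were at least 1.5-fold lower in both, and 1 differed in opposite directions at that size.

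**Figure D2:**
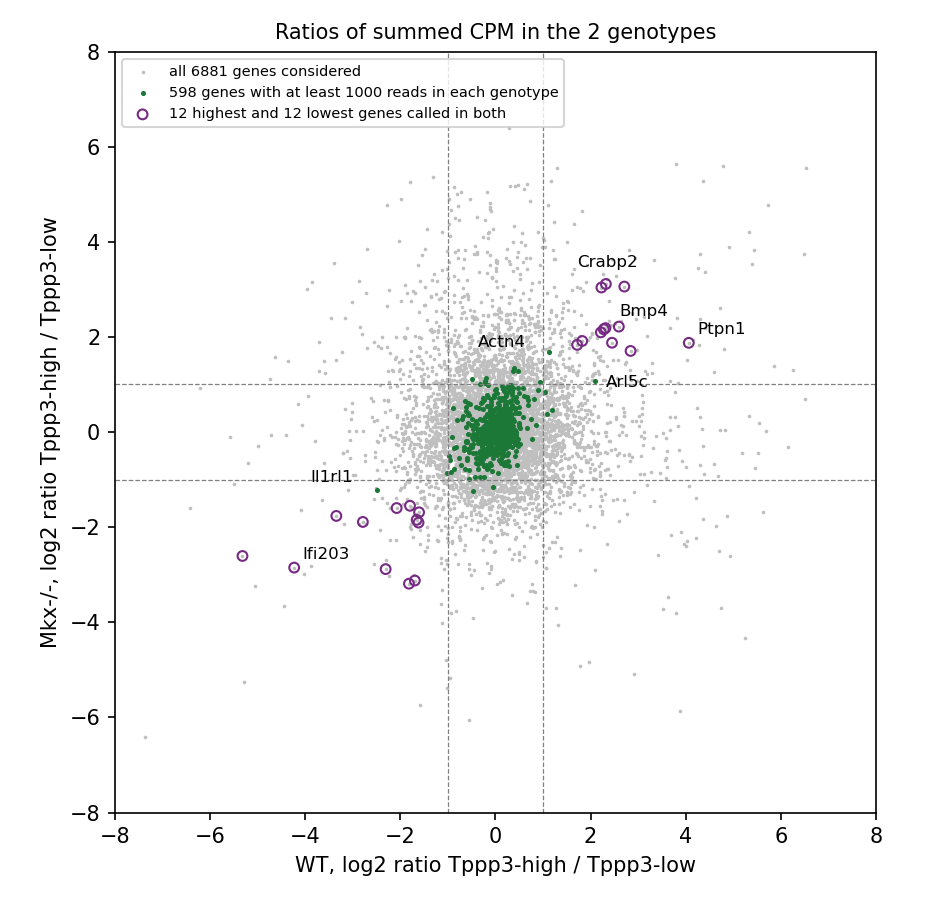
Log2 ratio of summed CPM, Tppp3-high over Tppp3-low, in WT cells (x axis) and Mkx-/- cells (y axis). Each grey point is 1 of 6881 genes, green points are the 598 genes with at least 1000 reads in each genotype, open circles are the 12 highest and 12 lowest genes called in both that were detected in 20% or more of the higher group, and dashed lines mark 2-fold. The grey cloud is round (Pearson r 0.07), while the green genes sit close to 0 with Actn4, Arl5c and Il1rl1 past 2-fold in both.

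Actn4, which encodes an actin-crosslinking alpha-actinin, was past 2-fold in both genotypes. Its summed level was 309 CPM in Tppp3-high and 141.8 CPM in Tppp3-low WT cells, a log2 ratio of 1.12 (0.92 to 1.33). In Mkx-/- high cells it was 381 CPM, a log2 ratio to the low cells of 1.69 (1.45 to 1.95). Per cell it ran from 0 through a median of 92.7 to 1773 CPM in WT high cells and from 0 through 26.8 to 831 CPM in WT low cells, so the groups overlapped widely although their medians differed. A read of Actn4 was found in 68% of high and 61.8% of low WT cells and in 77.1% and 50% of Mkx-/- cells. In WT cells its ratio was under 2-fold at other Tppp3 limits, at 0.31 with a limit of 7 and 0.66 with a limit of 9.

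Further well-read genes were higher by smaller amounts in both genotypes. Plekhf1, an endosomal phosphoinositide-binding protein, had log2 ratios of 0.94 in WT and 1.05 in Mkx-/- cells. Clstn1, a calsyntenin that links cargo to kinesin motors on microtubules, had 0.89 and 0.88. Crip2, a LIM-domain protein, had 0.68 and 0.67 and was higher at each step of Tppp3. From cells without a Tppp3 read, through low cells with reads and cells from 8 to under 9.5, to cells at 9.5 or more on the log2 scale, Crip2 stood at 415, 588, 689 and 1042 CPM in WT and at 576, 873, 1074 and 1306 CPM in Mkx-/- cells. Ppp1r14b, an inhibitor of a myosin phosphatase, had ratios of 0.80 and 0.69, and Uqcc2, an assembly factor of a respiratory chain complex, had 0.66 and 0.73. Arl5c passed 2-fold in both (2.10 and 1.08), but 1 cell held 75.9% of its reads in the WT high group and another 93.8% in the Mkx-/- low group. The symbols Gm23935, Gm6169 and Gm7436 were also in this group of 10, at 0.60 to 1.05. Bowtie2 aligns reads without splitting them over introns, so reads of such predicted copies and of their parent genes may not be separable.

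The well-read genes that were lower in Tppp3-high cells included an inflammatory receptor and a transcription factor of inflammatory signalling. Il1rl1, an interleukin receptor that answers an alarmin, stood at 104.7 CPM in Tppp3-high and 591 CPM in Tppp3-low WT cells, a log2 ratio of -2.50 (-2.70 to -2.30). In Mkx-/- cells it stood at 381 and 887 CPM, a log2 ratio of -1.22 (-1.34 to -1.09). Over the 4 steps of Tppp3 it was lower at each step in both genotypes, and went from 829 down to 62.1 CPM in WT and from 1050 down to 276 CPM in Mkx-/- cells. Its spread was wide, from 0 to 3905 CPM in WT low cells with a median of 63.6, and 38% of WT high cells against 64.7% of WT low cells had a read. The Mkx-/- groups were closer per cell, with a read in 62.5% of high and 70% of low cells. Their median cells stood at 25.1 and 50.9 CPM.

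Nfkb1, which encodes a subunit of the transcription factor NF-kB, had log2 ratios of -1.02 in WT and -0.87 in Mkx-/- cells. Its median cell stood at 85 CPM in high and 311 CPM in low WT cells and at 169.6 and 407 CPM in Mkx-/- cells. Mmp2, a gelatinase that cleaves collagen and basement membrane, had ratios of -0.93 and -0.83. It was lower at each step in WT cells, at 1155, 639, 511 and 301 CPM, and in Mkx-/- cells it stood at 864, 533 and 581 CPM in the first 3 steps and lowest in the last. Mt1, a metallothionein that binds zinc and copper, had ratios of -0.63 and -0.78, and was lower at each step, from 1214 down to 600.4 CPM in WT and from 1681 down to 699.8 CPM in Mkx-/- cells. Cryab, a small heat shock protein, had -0.87 and -0.78. Its median Mkx-/- cells were close, at 457.9 CPM in the high and 479.1 CPM in the low group. There 1 cell held 33.6% of the high reads and another 26.5% of the low reads. A Cryab read was found in 93.75% of high and 86.7% of low Mkx-/- cells, against 72% and 82.4% in WT. Hk2, a hexokinase of the first step of glycolysis, had log2 ratios of -0.72 and -0.69. Ssr2, a subunit of the translocon-associated complex of the endoplasmic reticulum, had -0.59 and -0.60.

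**Figure D3:**
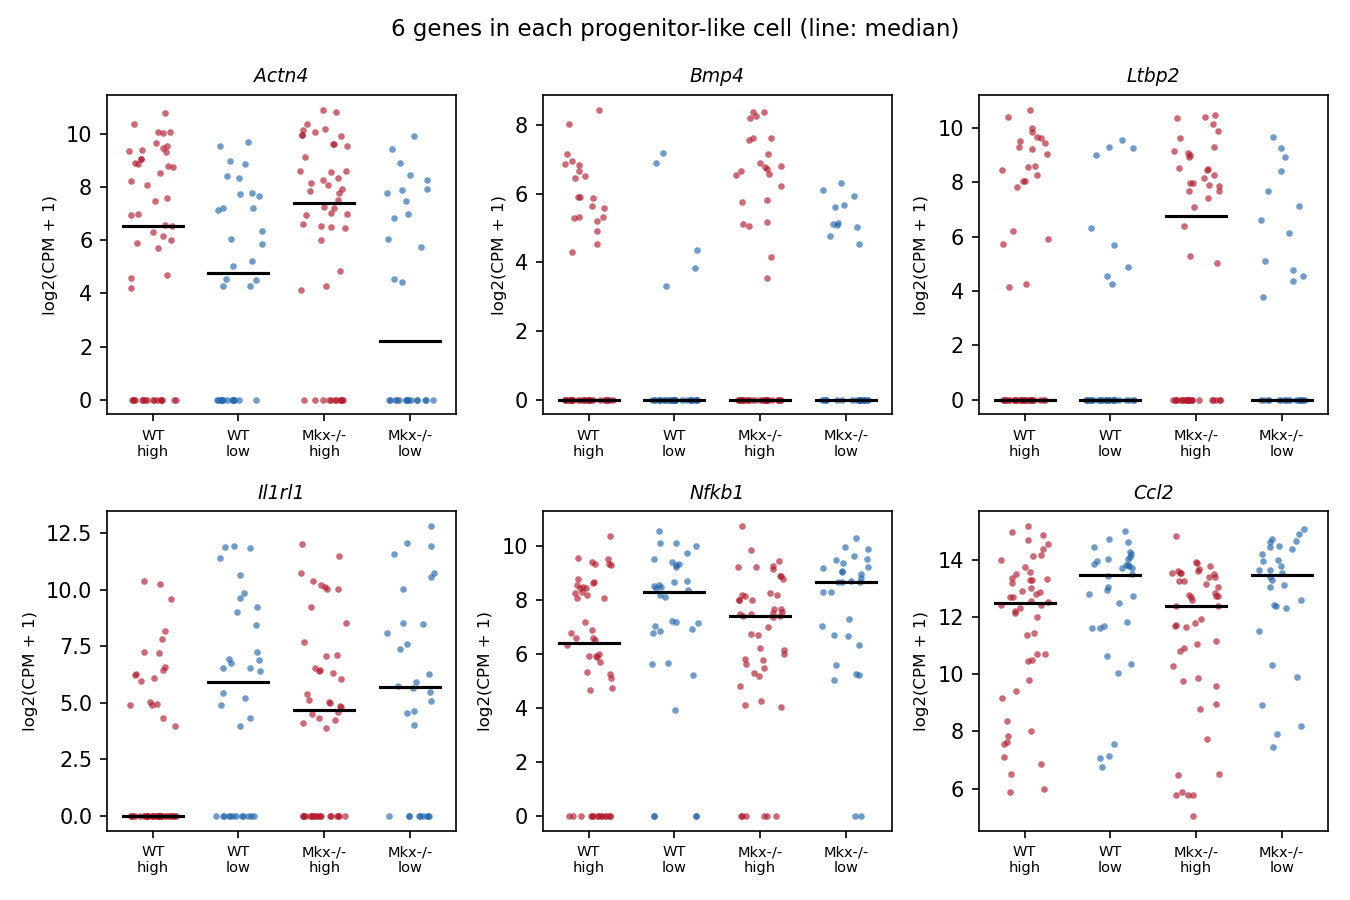
Level of 6 genes, log2(CPM + 1), in each progenitor-like cell of the 4 groups (50 and 34 WT, 48 and 30 Mkx-/- cells). Each point is 1 cell and the black line is the median. For every gene the groups overlap; the median of Nfkb1 and of Ccl2 is lower and that of Actn4 higher in the Tppp3-high group of both genotypes, while most cells have no Bmp4 read.

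The same Tppp3 limit was applied to the cells that the rule had left out, 22 high and 43 low WT and 23 high and 39 low Mkx-/- intermediate cells, and 7 and 71 WT and 15 and 69 Mkx-/- tenocyte-like cells. Actn4 was higher with Tppp3 in all 4 of these comparisons, with log2 ratios of 0.74 (0.54 to 0.94) and 0.45 (0.27 to 0.64) in WT and Mkx-/- intermediate cells and 1.71 and 0.64 in tenocyte-like cells. Crip2 was likewise higher in all 4, at 0.67, 0.51, 0.85 and 0.65. Plekhf1 stood at 0.41, 0.14, 1.26 and 0.74, the second with an interval from -0.06 to 0.33. Il1rl1 did not follow, with 0.04 in WT and -4.05 in Mkx-/- intermediate cells and 2.36 and -0.36 in tenocyte-like cells. Nfkb1 stood at -0.09 (-0.29 to 0.11) in WT and -0.50 (-0.68 to -0.33) in Mkx-/- intermediate cells. Mmp2 stood at -0.01 (-0.16 to 0.14) and -0.44 (-0.53 to -0.35) there, with intervals that cover counting error only. In WT tenocyte-like cells both were higher with Tppp3, Nfkb1 at 0.29 (0.02 to 0.55) and Mmp2 at 0.75 (0.53 to 0.95), and in Mkx-/- ones they stood at 0.11 and -0.58. Of the 10 well-read genes higher in both genotypes, 5 were higher in the intermediate cells of both, and of the 7 lower, 4 were lower, against 25.7% and 23.8% of all 6881 genes. In tenocyte-like cells the counts were 7 of 10 and 2 of 7, against 28.7% and 22.3%. The shares of all genes were not matched for reads, while the 10 and 7 genes were all well-read.

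The largest ratios lay in genes read seldom. Among genes called in both genotypes and detected in 20% or more of the higher group, the 12 highest in Tppp3-high cells, by the smaller of their 2 ratios, were Rassf5, Crabp2, Sirt1, Epdr1, Rusc2, Tsen34, Bmp4, n-R5s151, Ptpn1, Pqlc3, Car5b and Bola1. They had a read in 20% to 42% of WT and 20.8% to 47.9% of Mkx-/- high cells, so for each the median cell stood at 0 in all 4 groups. Bmp4, a ligand of the bone morphogenetic protein family, stood at 44.1 CPM in high and 9.49 CPM in low WT cells, a log2 ratio of 2.22 (1.49 to 3.02), and at 65.05 and 15.2 CPM in Mkx-/- cells, a ratio of 2.10 (1.42 to 2.84). It was read in 42% of high and 14.7% of low WT cells and in 47.9% and 36.7% of Mkx-/- cells. With every cell thinned to 20000 reads, which left out 1 WT high, 2 Mkx-/- high and 1 Mkx-/- low cell, the shares were 36.7% and 5.88% in WT and 45.7% and 20.7% in Mkx-/- cells. In intermediate cells Bmp4 showed no such difference, at -0.23 in WT and -0.27 in Mkx-/- cells. In tenocyte-like cells it was higher in WT, at 2.53 (1.94 to 3.09), and stood at -0.30 (-1.16 to 0.46) in Mkx-/- cells.

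Crabp2, which carries retinoic acid to its nuclear receptor, had a log2 ratio of 2.32 (1.17 to 3.71) in WT and one of 3.11 (1.69 to 5.03) in Mkx-/- cells, from 18.5 against 3.69 CPM and 26.3 against 3.04 CPM. Epdr1, an ependymin-related secreted and lysosomal protein, had 2.59 and 2.22, and it was read in 26% of high and 14.7% of low WT cells and in 47.9% and 26.7% of Mkx-/- cells. Rassf5, an effector of Ras-type GTPases, stood at 51.8 and 7.91 CPM in WT (2.71) and at 50.7 and 6.09 CPM in Mkx-/- cells (3.06), where 1 cell held all reads of the low group. Rusc2, an adaptor of vesicle transport, had 2.31 and 2.18. The share of cells with a Rusc2 read was no higher in WT high cells (26% against 26.5%), while in Mkx-/- cells it was 29.2% against 13.3%. Ptpn1, a tyrosine phosphatase of insulin and cytokine signalling, had 4.07 and 1.88, and Tsen34, a subunit of the tRNA splicing endonuclease, had 2.28 and 2.16. The share of Mkx-/- cells with a Ptpn1 read was not higher at each step of Tppp3. From the lowest to the highest step it was 28.6%, 31.25%, 41.7% and 16.7%. In thinned cells the Ptpn1 share was 24.5% in high against 5.88% in low WT cells, and 21.7% against 17.2% in Mkx-/- cells. Sirt1, an NAD-dependent deacetylase, had 2.23 and 3.04, but in Mkx-/- cells 1 cell held 59.4% of its reads in the high group and the share of cells with a read was no higher (33.3% against 36.7%). Pqlc3 had 1.83 and 1.91. The mitochondrial proteins Car5b, a carbonic anhydrase, and Bola1 had 1.72 and 1.83 and 2.84 and 1.70. In WT intermediate cells they stood at 1.58 and 2.31. In Mkx-/- intermediate cells Car5b had 24 reads in the high and 2 in the low group and Bola1 had 30 and 2. In WT tenocyte-like cells Car5b had 0 reads in the 7 high cells and Bola1 had a log2 ratio of -0.19, while in Mkx-/- ones both were higher, at 1.13 and 1.53. The symbol n-R5s151 (2.45 and 1.88) is a ribosomal RNA gene with many near-identical copies, so its reads are uncertain.

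The 12 lowest genes by the same rule were Ifi203, Sptlc1, Synj2, Cnnm4, Osgin2, Grpel2, Pcnx4, Fdx1l, Mdn1, Ctns, Fgl2 and Anapc1. Ifi203, an interferon-inducible gene stood at 2.81 CPM in high and 52.7 CPM in low WT cells, a log2 ratio of -4.23 (-5.58 to -3.13), and at 8.13 and 58.6 CPM in Mkx-/- cells, a ratio of -2.85 (-3.62 to -2.14). It was read in 4% of high and 26.5% of low WT cells. The annotation places Mndal over it on the same strand, so the reads of both genes may not be separable. Sptlc1, a subunit of the enzyme that starts sphingolipid synthesis, had 0 reads in the 50 WT high cells, where 3 reads would be 1.20 CPM, and 47.97 CPM in WT low cells. In Mkx-/- cells Sptlc1 had a ratio of -2.61, and in thinned cells it was read in 15.2% of high and 20.7% of low ones. It went the other way in the remaining cells, at 0.75 in WT and 3.67 in Mkx-/- intermediate cells. In tenocyte-like cells Sptlc1 stood at 0.43 and 1.08. Synj2, a phosphoinositide phosphatase, had -2.31 and -2.88, and Cnnm4, a magnesium transporter, had -2.79 and -1.89.

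Grpel2, a cofactor of a mitochondrial chaperone, had -3.34 and -1.76, and the mitochondrial ferredoxin Fdx1l had -1.65 and -1.85. Ctns, the lysosomal cystine exporter, had -1.60 and -1.69, Mdn1, a ribosome assembly ATPase, had -1.62 and -1.90, and Anapc1, a subunit of the anaphase-promoting complex, had -1.80 and -1.55. Osgin2 (-1.82 and -3.19) and Pcnx4 (-1.69 and -3.12) completed the group with Fgl2, a secreted fibrinogen-like protein, at -2.08 and -1.60. For Fgl2 1 cell held 72.1% of the reads in the WT low group and another 51.3% in the Mkx-/- low group. The share of Mkx-/- cells with a read did not fall along the steps of Tppp3 for Mdn1 and Fdx1l. From the lowest to the highest step it was 14.3%, 25%, 20.8% and 25% for Mdn1. For Fdx1l it was 28.6%, 12.5%, 12.5% and 29.2%. In thinned cells Mdn1 was read in 10.2% of high and 29.4% of low WT cells and in 17.4% and 20.7% of Mkx-/- cells. Fdx1l was read there in 16.3% and 17.6% of WT and in 15.2% and 10.3% of Mkx-/- cells. Applied to the intermediate cells of both genotypes, 3 of the 12 highest and 4 of the 12 lowest genes kept their direction, 25% and 33.3%, against 25.7% and 23.8% of all genes. Among all 67 and 54 genes that met the same conditions the shares were 29.9% and 29.6%. In tenocyte-like cells 4 of the 12 highest (33.3%) and 1 of the 12 lowest (8.33%) kept their direction in both genotypes, against 28.7% and 22.3% of all genes, and the shares of the 67 and 54 genes were 35.8% and 16.7%.

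**Figure D4:**
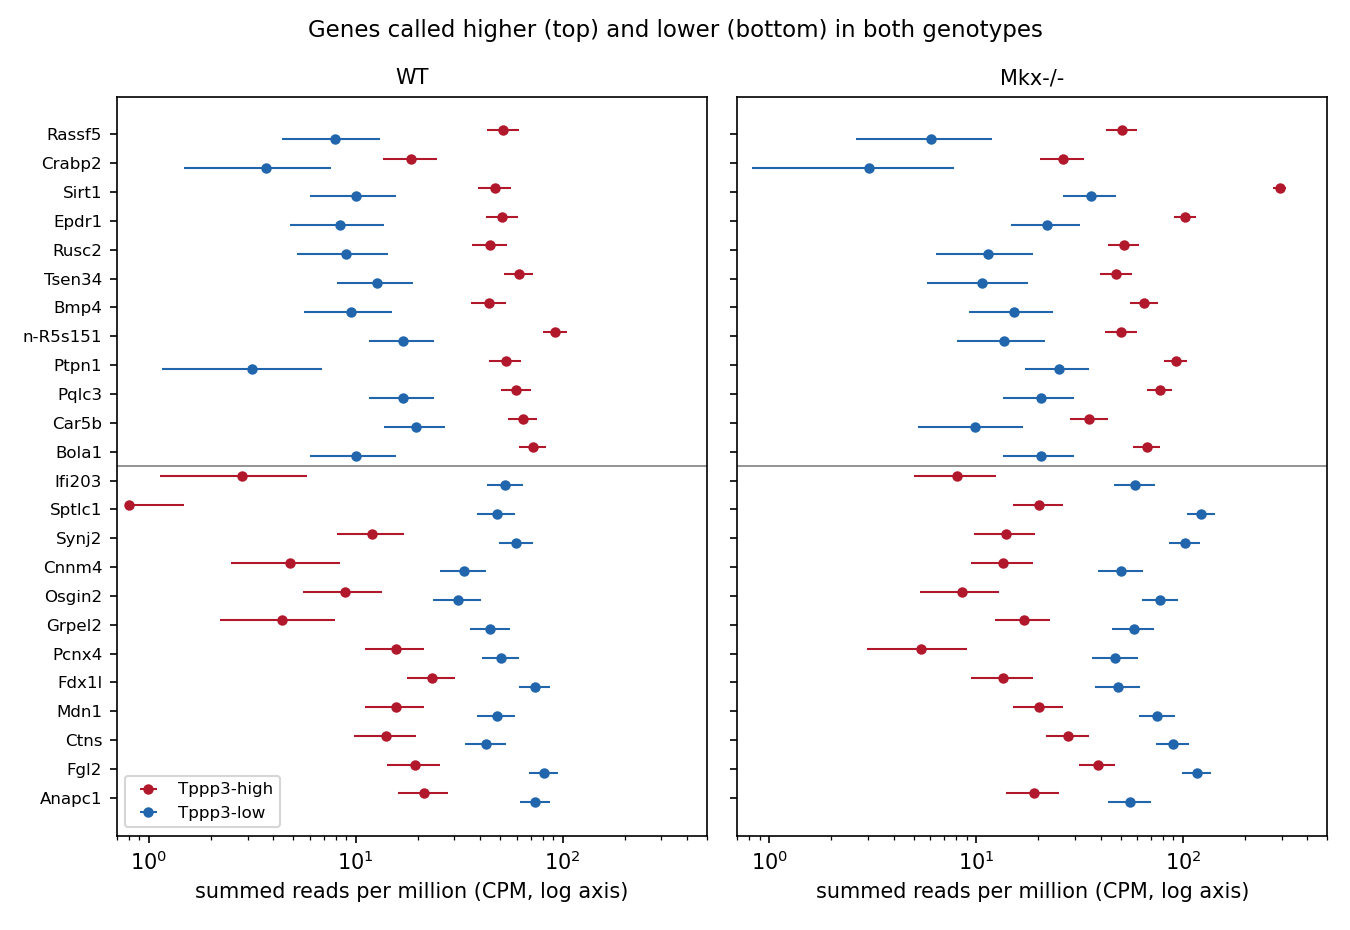
Summed level, CPM on a log axis, of the 12 highest and 12 lowest genes in Tppp3-high (red) and Tppp3-low (blue) progenitor-like cells of WT (left) and Mkx-/- (right). Points are summed CPM, bars are 95% Poisson intervals of the read count, and the 0 reads of Sptlc1 are drawn at 0.8 CPM. The red and blue intervals are apart for every gene in both genotypes, at levels mostly below 100 CPM. The genes were chosen by their ratios in these same reads, so this is no separate check of them.

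The progenitor markers differed by less than 2-fold. Over all 27 gene lists, 82 of the genes compared lay within 2-fold in both genotypes, 3 (2.54%) were higher and 3 (2.54%) lower in both, near the 3.33% and 1.8% of all genes compared. In WT 12.6% of all genes compared were higher and 10.1% lower, and in Mkx-/- cells 15.9% and 10.6%. The counts of each list that follow are to be read beside these shares. The 4 progenitor markers of the study, Fstl1, Ly6a, Cd44 and Thy1, had log2 ratios of 0.09, -0.04, -0.05 and 0.23 in WT and 0.22, 0.47, -0.13 and 0.64 in Mkx-/- cells. The list median was 0.02 in WT and 0.34 in Mkx-/- cells, against 0.03 and 0.05 over all genes compared. The tenoblast marker Lgals3 had 0.28 and 0.23. Among 10 adventitial fibroblast markers none was called in WT and 1 in Mkx-/- cells, with medians of 0.06 and -0.08, and Mfap5, Ly6c1, Cd34 and Sema3c lay between -0.10 and 0.33. Of 6 interstitial fibroblast markers 1 was lower in WT and none was called in Mkx-/- cells (medians -0.10 and 0.10). This one was the basement membrane collagen Col4a1, at -1.09 in WT and -0.18 in Mkx-/- cells.

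Among 7 genes of the tendon sheath and synovial lining, 1 was higher in each genotype and none lower, with medians of 0.12 and -0.18. Of all genes 12.6% were higher and 10.1% lower in WT, and 15.9% and 10.6% in Mkx-/- cells. Prg4, the boundary lubricant lubricin, was abundant in both groups, at 3876 and 4089 CPM in WT (-0.08) and at 4974 and 8795 CPM in Mkx-/- cells (-0.82). Has1, a hyaluronan synthase, had -0.12 and 1.46. Of 12 tubulins and other microtubule proteins none was higher and 2 were lower in WT, and 1 was higher and 1 lower in Mkx-/- cells (medians -0.35 and 0.18). Tuba1a, the alpha-tubulin with most reads, had -0.26 and 0.53, and Mapre1, which binds growing microtubule ends, had 0.04 and 0.19.

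Most tenocyte genes and collagens lay near 0. The shares over all genes were 12.6% higher and 10.1% lower in WT, and 15.9% and 10.6% in Mkx-/- cells. Of 9 tendon transcription factor and tenocyte genes none was called in WT and 1 was lower in Mkx-/- cells (medians -0.14 and -0.07), and Col1a2, Sparc, Col1a1 and Dcn lay between -0.33 and 0.05. Of 11 other collagens 1 was lower in WT, and 1 was higher and 1 lower in Mkx-/- cells (medians -0.05 and 0.03). Col12a1, a collagen that sits on the surface of collagen fibrils, was the one lower in both, at -1.68 (-2.32 to -1.07) and -1.73 (-2.63 to -0.86), but 71.8% of its reads in WT low cells came from 1 cell. Without the leading cell of each group its WT ratio stood at -0.27. Of 11 elastic fibre and microfibril genes 1 was higher in WT, and 2 were higher and 1 lower in Mkx-/- cells (medians 0.05 and 0.10). The one higher in both was Ltbp2, a microfibril protein of the latent transforming growth factor binding family, at 284 and 130 CPM in WT (1.13, 0.92 to 1.35) and at 302 and 89.04 CPM in Mkx-/- cells (1.76, 1.48 to 2.05). Ltbp2 was read in 46% of high and 26.5% of low WT cells and in 56.2% and 43.3% of Mkx-/- cells. It was called in both genotypes in 9 of 14 alternative settings, and at a limit of 9 its log2 ratios were 0.71 and 0.31. It was also higher with Tppp3 in tenocyte-like cells, with 65.9 CPM in high and 8.25 CPM in low WT cells and 166.9 and 35.8 CPM in Mkx-/- cells, and it had log2 ratios of 0.19 and 0.71 in intermediate cells.

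**Figure D5:**
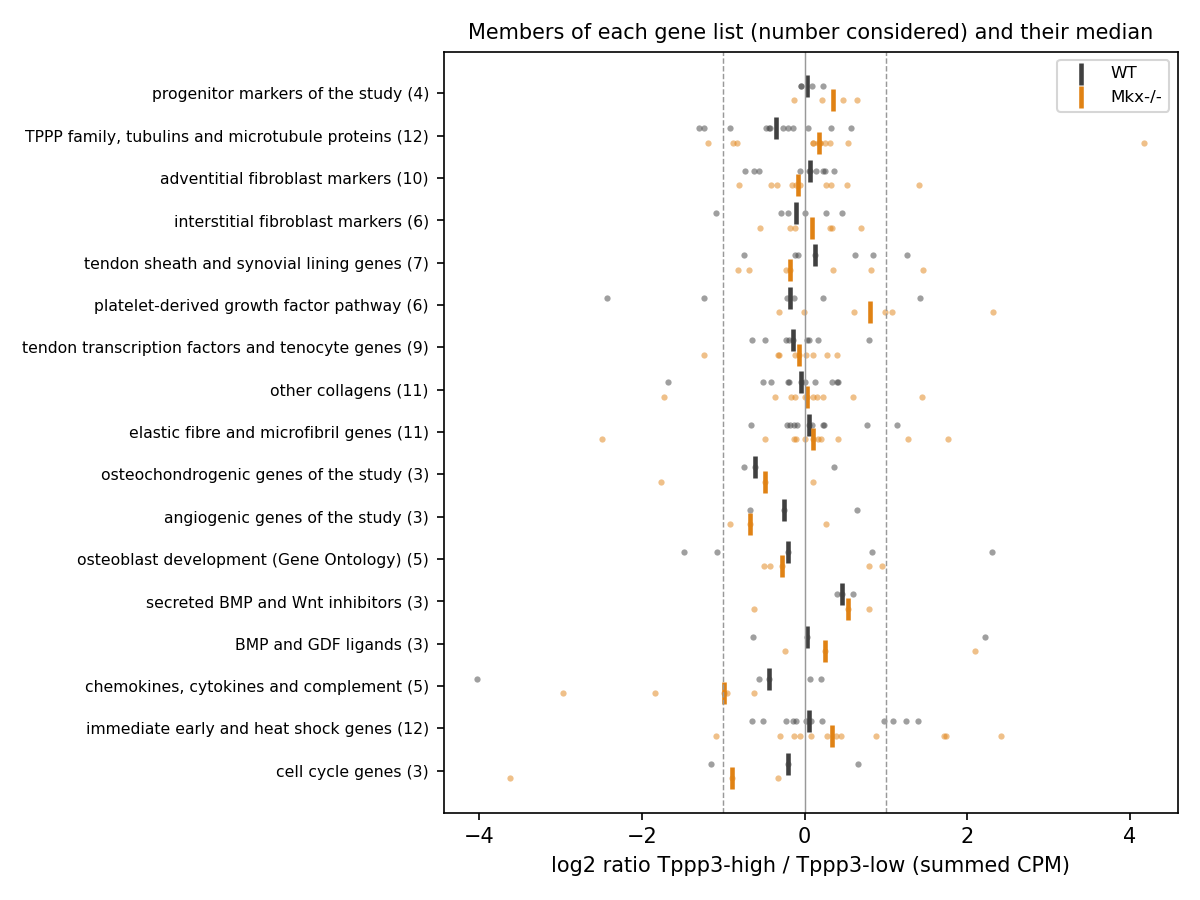
Log2 ratio of summed CPM, Tppp3-high over Tppp3-low, for the members of the 17 gene lists with at least 3 genes compared. Points are genes, vertical ticks are list medians, WT is black and Mkx-/- is orange, and dashed lines mark 2-fold. No list median reaches 2-fold; the lowest is that of chemokines, cytokines and complement in Mkx-/- cells at -0.99.

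Ccl2 and Cxcl1 were lower in Tppp3-high cells of both genotypes by less than 2-fold. Of 5 chemokine, cytokine and complement genes none was higher, 1 was lower in WT and 2 were lower in Mkx-/- cells, with medians of -0.44 and -0.99. Over all genes 10.1% were lower in WT and 10.6% in Mkx-/- cells, and 5 genes are too few to set against these shares. Ccl2, which attracts monocytes, was among the most abundant genes of these cells. It stood at a summed 8149 CPM in high and 11036 CPM in low WT cells, and at 6982 and 13475 CPM in Mkx-/- cells, log2 ratios of -0.44 and -0.95. Its median cell stood at 5679 and 11290 CPM in WT and at 5366 and 11314 CPM in Mkx-/- cells. Along the 4 steps of Tppp3 it was not lower at each step, standing at 7087, 12481, 8774 and 7519 CPM in WT and at 10526, 15692, 6977 and 6986 CPM in Mkx-/- cells, so cells without a Tppp3 read were not the highest. Cxcl1, which attracts neutrophils, had -0.56 and -0.99, and Ccl7 had 0.20 and -0.62. Ccl11, the eosinophil attractant eotaxin, was lower in both by 2-fold or more, at -4.03 (-5.39 to -2.93) and -2.97 (-3.87 to -2.17), with reads in 6% of high and 11.8% of low WT cells and in 6.25% and 13.3% of Mkx-/- cells.

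Of the growth factor lists, Bmp4 gave the call shared by both genotypes. For comparison, 12.6% of all genes were higher and 10.1% lower in WT, and 15.9% and 10.6% in Mkx-/- cells. Of 3 BMP and GDF ligands 1 was higher in each genotype, which was Bmp4, while Bmp2 had -0.63 and -0.24 and Bmp3 had 0.03 and 0.25 (list medians 0.03 and 0.25). None of 3 secreted BMP and Wnt inhibitors was called (medians 0.46 and 0.54), with Dkk3 at 0.60 and 0.54. Of 6 genes of the platelet-derived growth factor pathway 1 was higher and 2 lower in WT and 2 were higher in Mkx-/- cells, with medians of -0.18 and 0.80. The receptors Pdgfra (-0.14 and -0.32) and Pdgfrb (-0.22 and -0.01) were near 0, and Pdgfra was read in 23 of 50 high and 18 of 34 low WT cells and in 39 of 48 and 23 of 30 Mkx-/- cells. Pdgfc, a ligand, had 0.23 in WT and 2.31 in Mkx-/- cells, the latter from 6 and 4 cells with a read.

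Of the stress and cycle genes, Hspa1b and Top2a were called in both genotypes, against 3.33% of all genes called higher and 1.8% called lower in both. Taken by genotype, 12.6% of all genes were higher and 10.1% lower in WT, and 15.9% and 10.6% in Mkx-/- cells. Of 12 immediate early and heat shock genes 3 were higher in WT, and 3 were higher and 1 lower in Mkx-/- cells (medians 0.05 and 0.33). Hspa1b, an inducible heat shock protein, had 1.40 and 1.71, but it has a near-identical neighbour, Hspa1a, so the split of reads between them is uncertain. Its share of cells with a read was 42% against 26.5% in WT and 33.3% against 43.3% in Mkx-/- cells. Atf3, a stress-induced transcription factor, had 1.09 and 0.39. Of 3 cell cycle genes 1 was lower in each genotype (medians -0.20 and -0.89). That was Top2a, at -1.15 and -3.62, with 98% of its WT low and 89.9% of its Mkx-/- low reads in 1 cell each.

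Of the bone and vessel lists 3, 3 and 5 genes were compared and none was called in both, too few genes to set against 3.33% and 1.8% of all genes. Of 3 osteochondrogenic genes of the study none was called in WT and 1 was lower in Mkx-/- cells (medians -0.61 and -0.49), where Comp, a cartilage and tendon matrix protein, had -1.77 after -0.74 in WT. The matrix Gla protein Mgp, an inhibitor of calcification, had 0.37 and -0.49. None of 3 angiogenic genes was called (medians -0.26 and -0.67), with Hif1a at 0.65 and 0.27 and Thbs1 at -0.67 and -0.92. Of 5 genes of the Gene Ontology list osteoblast development 1 was higher and 2 lower in WT and none was called in Mkx-/- cells (medians -0.21 and -0.27). The study examined these lists in the same cells, so they are not independent evidence.

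Markers of other cell types were mostly sparse. The 1 endothelial marker compared, Tek, had 0.96 and 0.51, and the summed endothelial markers ran from 0 to 1386 CPM per cell in WT high and from 0 to 804 CPM in WT low cells, with a median of 0. The 1 mural marker compared had -0.26 and -0.48. Of 2 immune markers 1 was higher in WT and both were lower in Mkx-/- cells. The macrophage gene Lyz2 had -0.93 and -3.81, with 99.1% of the WT low and 97.8% of the Mkx-/- low reads in 1 cell each. The 1 chondrocyte marker compared had -0.29 and 1.73 and the 1 keratinocyte marker 0.79 and 1.66. No Schwann cell, adipocyte, skeletal muscle or red blood cell marker had enough reads in both genotypes to be compared. The summed Schwann cell markers stood at 229 CPM in high and 51.8 CPM in low Mkx-/- cells, and at 29.7 and 31.6 CPM in WT. Per Mkx-/- cell they ran from 0 through a median of 18.6 to 6203 CPM in high and from 0 through 24.7 to 468 CPM in low cells. The part of cells with such markers in the differences of other genes was not tested beyond leaving those cells out.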

How the data were processed

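The table that the authors deposited holds unnormalised counts of reads per gene symbol for each of 451 cells, with 162 progenitor-like cells. The study's methods name AfterQC, NGSQCToolkit, bowtie2 on mm9 and featureCounts, while the submitters' processing notes name Bowtie2, featureCounts and mm10. Handling of multi-mapping reads and of strand is not given in the sources used here, so overlapping genes cannot be separated. Positions are from GENCODE M1 on NCBIM37, where 43 of 47 symbols looked up were found, 3 of them overlapped by another gene on the same strand and 13 on the other strand only. No cell was removed, no doublet caller was run and 0 columns were left unused. The highest correlation between a pair of progenitor-like cells was 0.648.

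Counts were scaled to CPM per cell, the rule was applied over both genotypes together, and counts were then summed per genotype and group. Sums have exact Poisson intervals, ratios exact conditional binomial and shares Clopper-Pearson intervals at 95%. A sum of 0 was set to 3 reads. No test was made, since each genotype is 1 sample. Genes called lower in both genotypes numbered 124, those higher in WT and lower in Mkx-/- 116 and the reverse 155, and 118 list genes were compared. The 12 highest and 12 lowest genes were called in both genotypes, had a read in 20% or more of the higher group's cells, and kept their sign when per-cell CPM or log2(CPM+1) was averaged, leaving out ribosomal protein, Gm, Rik and pseudogene symbols. At most 4 members of a list were named, those with most reads and any called in both. Members, lists and rules were chosen with earlier results of these data known, and the genes with 1000 or more reads after their values were seen. Alternatives changed the Tppp3 limit, the cell rule, depth, scaling and filters. Scripts were tested on simulated data. Python 3.11.15, numpy 2.4.6, pandas 2.3.3 and scipy 1.17.1 were used.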

Additional observations from a re-analysis of the deposited data

Results flagged for a closer look

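Among the listed genes, 2 were called in opposite directions in WT and Mkx-/- cells. Pdgfa, a ligand of the platelet-derived growth factor receptors, had a log2 ratio of Tppp3-high to Tppp3-low of -1.24 in WT (28.1 against 66.4 CPM) and of 1.07 in Mkx-/- cells (51.1 against 24.4 CPM). It was read in 8 high and 7 low WT cells and in 14 and 6 Mkx-/- cells, and 1 cell held 65.1% of the reads of the WT low group. The macrophage receptor gene Csf1r had 2.90 in WT cells and at most -5.09 in Mkx-/- cells, where all its reads lay in 1 low cell. The WT ratio also rests on few cells. With WT cells thinned to 20000 reads, Csf1r was read in 4.08% of high and 5.88% of low cells. The difference between genotypes was not tested for either gene.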

How the results depend on the processing

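The share of genes called depended most on the number of reads required. With at least 10 reads per genotype (10302 genes) 19.8% were higher and 15.7% lower in WT, 23.02% and 15.9% in Mkx-/-, and 6.97% and 3.92% in both. In the same order, at least 200 reads (3200 genes) gave 5.12%, 3.94%, 7.97%, 5.19%, 0.938% and 0.469%, and at least 1000 reads, added after the data were seen, gave 0.836%, 0.334%, 1.84%, 0.502%, 0.334% and 0.167%. Cells thinned to 20000 reads (4148 genes) gave 9.45%, 6.73%, 10.8%, 7.98%, 1.83% and 0.988%. Leaving out the leading cell of each group gave 24.9% higher in Mkx-/- and 7.03% higher in both. Cells with any Tppp3 read against none gave 28.3% higher in WT, 26.5% in Mkx-/- and 10.3% in both, with 85.7% and 82.1% of cells on the Tppp3 side. A limit of 9 gave 2.19% higher in both, with shares of 42.9% and 38.5% of cells, and a limit of 7 a WT share of 73.8%. For genes called, a change in their count, not in their share, decided what is listed here. Thinned cells had fewer genes to compare, 4148 against 6881, so their shares changed less than their counts. The other 72 counts stayed within 1.5 times their value and 17 shares of cells within their interval. The genes behind a count changed more than the count: of the 229 genes higher in both, 55.5% were called again at a limit of 7, 32.3% at a limit of 9 and 58.1% with any read against none, and of those lower in both 36.3%, 37.1% and 17.7%. No progenitor-like or intermediate cell had 5000 genes, so leaving out such cells changed nothing.

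Of the gene values, 1919 stayed within their interval, 874 moved outside it and 30 that had been 2-fold or more changed sign. A change of sign in a smaller ratio was not counted apart, and lies within the 1919 and 874. Epdr1, Rusc2 and Ifi203 were called in both genotypes in all 14 settings, Bmp4 and Il1rl1 in 13, Rassf5 in 12, Actn4 and Synj2 in 11 and Ltbp2 in 9. The 14 settings include leaving out cells with 5000 genes, which changed nothing. All settings drew on the same cells in which the genes were chosen. The values nearest 0 were 0.07 for Rassf5 in WT (thinned), -0.04 for Synj2 in WT (any read against none), 0.31 for Actn4 in WT and 0.39 for Ltbp2 in WT (both at a limit of 7), and 0.31 for Ltbp2 in Mkx-/- cells (a limit of 9). Of the ratios of 2-fold or more, those that changed sign at a limit of 7 were Mdn1 (1.23, Mkx-/-) and Top2a (4.88, WT). At a limit of 9 they were Sirt1 (-0.96), Tsen34 (-0.47), Pqlc3 (-1.45), Arl5c (-1.79) and Pdgfc (-4.28), all in Mkx-/- cells. With any read against none they were Cnnm4 (0.47), Osgin2 (1.11), Mdn1 (2.03), Fgl2 (0.63), Anapc1 (2.75), Col12a1 (0.34), Pdgfa (-0.28), Csf1r (1.55) and Lyz2 (3.69) in Mkx-/- cells, and Grpel2 (1.25), Ctns (1.26), Ccl11 (2.04) and Top2a (3.36) in WT. Col12a1 in WT stood at 0.60 with z-scores within each genotype, at 3.42 with a margin of 0.5 and at 0.76 in cells with at least 2500 genes, where Pdgfa in WT stood at 0.22 and Lyz2 in Mkx-/- cells at 1.64. Top2a in WT stood at 0.46 in thinned cells, at 0.34 by mean per-cell CPM and at 3.16 without the leading cells. Pdgfc in Mkx-/- cells stood at -0.10 when thinned, and Lyz2 there at 1.70 without cells with markers of other cell types. The cause was not tested for any of these.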
